A study of Mus musculus with 80 samples.

Results

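H3K27me3, the trimethylated form of lysine 27 on histone H3, is laid down by Polycomb repressive complexes and marks genes that are kept silent, often over broad domains around developmental regulators. Kdm6b is one of the demethylases that remove it. The regions described here are the strongest H3K27me3 peaks of mouse uterine fibroblasts with and without Kdm6b. They were chosen by their own measured values: autosomal peaks whose −log10 q reached 2 (a q of at most 0.01) in any of 12 peak lists were merged wherever they overlapped. The 12 lists held 2671033 autosomal peaks, of which 7473 passed, and these merged into 2084 regions that cover 39.9 Mb. Because the q values of all 12 lists chose the regions, the values in those lists are given below as a description and carry no test.

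Fibroblasts were purified with magnetic beads from digested myometrium and endometrium, and the mark was mapped by CUT&RUN, which cuts out antibody-bound chromatin with a tethered nuclease. Conditional knockouts (cKO) were Pgr-Cre Kdm6b f/f females, in which Cre is driven by the progesterone receptor gene, and Pdgfra-Cre Kdm6b f/f females, in which it is driven by a gene of fibroblasts, and controls were Kdm6b f/f females. All of these females were mated with B6 males and carry the floxed allele, controls included. The 6 pairs of lists were Pgr-Cre cKO and control from tissue between implantation sites (IIS at GD5.5, GD8.5 or GD14.5) and from the sites themselves (IS at GD14.5 or GD18.5), plus Pdgfra-Cre cKO and control from IS at GD14.5. Each list pools 3 samples, so the 12 lists stand for 36 of the 80 samples of the series. A further 4 lists, which played no part in the choice of regions, came from B6CBAF1/J females at GD0.5 (uterus), at GD5.5 after natural mating (IIS), after a vasectomized mating (GD5.5, uterus), and without pregnancy after progesterone for 3 days (uterus). These 4 were called with wider minimum gaps between peaks, so levels are not compared between the sets. No ages are given in the sources used here, and the lists hold nothing that checks the deletion of Kdm6b.

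Each list is the only one of its group, read depth is unknown, and no spread between animals can be computed. The GD14.5 IS controls of the Pgr-Cre and of the Pdgfra-Cre pair share genotype, day and site, and their difference is given beside the cKO differences. The peak names in the cKO and control lists of Pgr-Cre GD14.5 IS carry another name for the round of peak calling than in the other 10 lists. Whether settings differed is not known, and any part of this in their values was not tested. In bulk fibroblasts, fewer cells with the mark and less mark per cell cannot be told apart either.

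The sequences below come from regions that passed in nearly every list or in the controls alone. The Mir183, Mir96 and Mir182 hairpins, a cluster known from sensory cells, lie at chr6:30165918-30169737 on the minus strand (GRCm38.p6, the same assembly as mm10), inside a region of 40.15 kb at chr6:30160756-30200908 with no protein-coding gene within 2 kb. This region passed in 5 of 6 cKO and 6 of 6 control lists. The mature 5p sequences from RefSeq are shown because the mark spans all 3 genes of the cluster, with the seed, bases 2 to 8, in capitals.
mmu-miR-183-5p: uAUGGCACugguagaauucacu
mmu-miR-96-5p: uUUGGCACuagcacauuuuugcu
mmu-miR-182-5p: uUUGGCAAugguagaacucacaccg
No seed was shared in full. The seeds of Mir96 and Mir182 matched at 6 of 7 positions, those of Mir96 and Mir183 at 6 and those of Mir182 and Mir183 at 5.

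In all, 29 of the 919 autosomal hairpins of the RefSeq table (3.16%) lay inside 23 strong regions.

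The next sequences are the 250 bases upstream of 4 transcription start sites, read 5′ to 3′ on the gene's strand from the RefSeq promoter table (GRCm38.p6), with every CG in capitals because CG-dense promoters are the usual ground of Polycomb domains. Neurog2, a proneural transcription factor, and Phox2a, a homeodomain factor of noradrenergic neurons, lie in regions past the threshold in 11 lists. The start sites of Corin, the protease that activates atrial natriuretic peptide, and Sp2, a zinc finger transcription factor, lie in regions past it in all 6 control lists and no cKO list. That of Sp2 is 0.851 kb from the start of its region and 43.5 kb from its end, so most of the region lies upstream of it.
Neurog2, chr3:127632886-127633135, plus strand: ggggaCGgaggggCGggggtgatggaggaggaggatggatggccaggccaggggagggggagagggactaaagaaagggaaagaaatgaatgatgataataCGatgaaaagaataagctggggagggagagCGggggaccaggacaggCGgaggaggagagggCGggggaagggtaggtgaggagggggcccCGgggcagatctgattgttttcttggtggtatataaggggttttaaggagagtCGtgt
Phox2a, chr7:101818063-101818312, plus strand: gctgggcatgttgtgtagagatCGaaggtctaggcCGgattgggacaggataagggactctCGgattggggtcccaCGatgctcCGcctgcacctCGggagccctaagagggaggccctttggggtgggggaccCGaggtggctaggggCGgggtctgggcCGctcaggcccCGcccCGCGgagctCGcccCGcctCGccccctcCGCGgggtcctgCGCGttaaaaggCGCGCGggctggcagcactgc
Corin, chr5:72504541-72504790, minus strand: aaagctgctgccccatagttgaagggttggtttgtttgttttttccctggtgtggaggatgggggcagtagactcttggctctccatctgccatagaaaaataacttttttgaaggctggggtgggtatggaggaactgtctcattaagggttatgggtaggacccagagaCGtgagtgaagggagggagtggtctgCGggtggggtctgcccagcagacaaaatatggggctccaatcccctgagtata
Sp2, chr11:96982960-96983209, minus strand: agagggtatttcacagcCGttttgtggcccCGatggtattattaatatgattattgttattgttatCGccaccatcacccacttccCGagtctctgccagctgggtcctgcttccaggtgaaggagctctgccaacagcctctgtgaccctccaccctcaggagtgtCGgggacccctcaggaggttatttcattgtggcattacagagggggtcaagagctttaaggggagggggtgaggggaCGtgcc
Phox2a held 22 CG in these 250 bases, Neurog2 8, Sp2 6 and Corin 2. The median was 11 over the 1211 promoters whose start site lay inside a strong region and 10 over all 20085 autosomal promoters of the table. At least 1 CG, the same on both strands, stood in 97.7% of the former and 93.7% of the latter. Promoters with a GC content of at least 55% and an observed-to-expected CG ratio of at least 0.65 over 300 bases made up 37.9% inside strong regions and 39.2% of all. Of the 2334 genes near strong regions 1814 (77.7%) have an entry in the table, so no statement over all nearby genes is drawn from it.

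The regions were broad, and most lay near a gene. Their median width was 18.8 kb, with a middle range of 11.96 to 26.02 kb and extremes of 0.417 and 52.7 kb. The median autosomal peak of any list was 1.05 to 1.18 kb wide. Regions are merged over lists, and strong peaks before merging had a median width of 1.45 to 18.3 kb per list. A protein-coding gene lay within 2 kb of 1680 regions (80.6%), and these are 2334 genes, 11.3% of the 20665 on the autosomes. No matching share of bins with a gene within 2 kb is given here. A start site lay inside 911 regions (43.7%), against 12.5% of 20 kb bins with a peak. The widest region, 52.7 kb at chr2:127147376-127200098, lay by 1810024B03Rik. The next widest spanned Fam172a and Nr2f1, an orphan nuclear receptor (51.7 kb, chr13:78164543-78216274), then Msx3, Caly and Prap1 (49.9 kb, chr7:140043406-140093267), Tm6sf2, Hapln4 and Ncan (48.6 kb, chr8:70078331-70126966), and Lhx4, a LIM homeobox gene (47.8 kb, chr1:155707528-155755348). In these 5 the highest fold over background was 1.71 to 1.97, under the median of 2.00 over all regions, and they passed in 1 to 5 lists.

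A small group was set off by a fold over background of 4, a cut-off set after the values were seen. No gap in the values marks it: chr11:60585904-60590568 reached 4.06 and was included, while chr11:60632724-60638681 reached 3.95 and was not. In 34 regions the fold reached 4 in at least 1 list, and each of the 34 passed the threshold in all 12 lists. They were narrow, with a median width of 4.34 kb, and only 13 (38.2%) had a gene within 2 kb. The other 2050 had a median width of 19.1 kb, and 1667 (81.3%) had a gene. Among those 2050, 19 regions under 5 kb wide also passed in all 12 lists. Over all 66 regions past in all 12 lists the median width was 3.72 kb, and 39.4% had a gene. Narrow width and few genes were thus not particular to the 34.

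**Figure D1:**
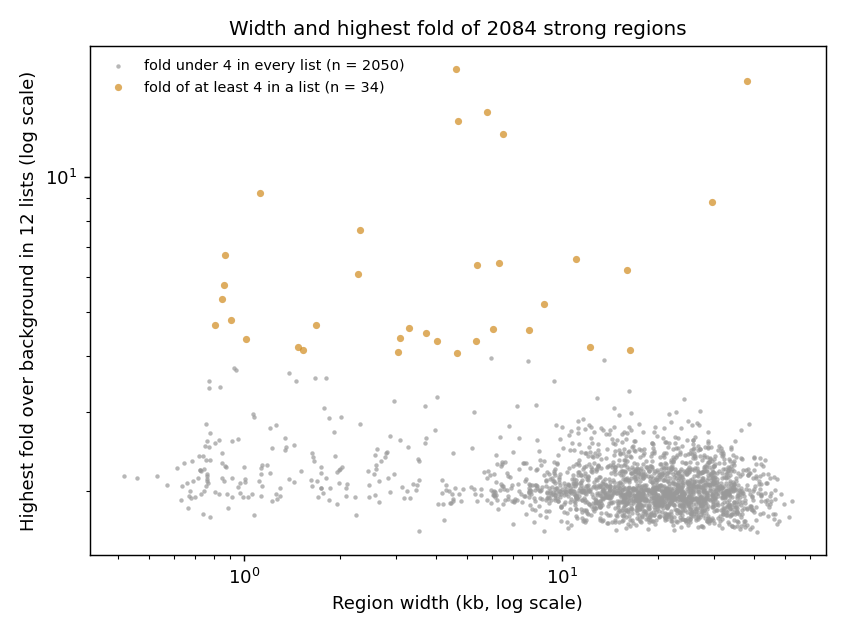
Each point is a strong region, placed by its width in kb and by its highest fold over background in the 12 lists, both on log axes. The 34 regions whose fold reached 4 (orange) spread over widths of 0.806 to 38.2 kb, while the other 2050 (grey) gather near a width of 19.1 kb and a fold of 2.00.

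The strongest of all, at chr14:19415373-19420015, had a fold of 15.4 to 17.4 in the cKO lists and 16.1 to 17.4 in the controls, with a −log10 q between 189.5 and 236.0. That at chr2:98661879-98667686 had 13.4 to 14.0 against 12.4 to 13.8, and that at chr17:39842659-39849157 had 11.9 to 12.5 against 11.3 to 12.2. In all 3 the cKO and control ranges overlapped, and none had a gene within 2 kb, though the chr2 region was higher in cKO in 6 of 6 pairs. The region at chr9:35289932-35328102 varied far more, with a fold of 1.85 at cKO GD5.5 IIS, 1.95 at cKO GD8.5 IIS and 9.84 to 13.1 in the other cKO lists, against 6.40 to 16.3 in the controls. Those 2 cKO lists stood below every control list there. Peaks also covered 85.7% and 97.0% of the region in them, against 32.4% to 79.5% in the other lists. Whether the low folds go with wider peaks was not tested. The remaining regions of the 10 highest were at chr15:75083408-75088103, chr12:3083225-3112760 and chr9:2999699-3006025, with no gene within 2 kb, and by Brox and Aida, Tmem125, and Chl1, a neural cell adhesion molecule. The chr12 region also varied, with a fold of 1.77 to 8.82 in cKO and 1.69 to 5.65 in control, lower in cKO in 1 of 6 pairs. Chl1 had 3.10 to 6.37 against 2.22 to 4.09 and Tmem125 2.02 to 6.20 against 1.96 to 5.68. Each of these 2 was lower in cKO in 2 of 6 pairs. A narrow peak by Gapdh, a glycolytic enzyme transcribed in nearly all cells, was also among the 34 (1.53 kb, chr6:125161881-125163406), with a fold of 3.60 to 4.12 in the cKO lists and 3.02 to 4.02 in the controls. Of the 34, 6 started within the first 3.2 Mb of a chromosome. Overlap with regions of repeated sequence was not tested, since no genome sequence was used.

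Among the other 2050 regions, those of Tfap2e, Neurog2 and Phox2a passed in 11 lists. Tfap2e, a factor of the AP-2 family, had a −log10 q of 4.26, 4.42, 4.06, 1.29, 2.87 and 3.05 in the cKO lists, in the order GD5.5 IIS, GD8.5 IIS, GD14.5 IIS, GD14.5 IS, GD18.5 IS and Pdgfra-Cre GD14.5 IS, and of 5.51, 7.54, 4.35, 5.02, 3.92 and 9.34 in the controls (24.1 kb, chr4:126718332-126742419). Neurog2 had 3.31, 3.13, 3.27, 1.23, 2.46 and 2.67 in cKO and 3.22, 4.62, 2.82, 3.04, 2.53 and 5.53 in control (40.7 kb, chr3:127616542-127657199). Phox2a had 3.31, 2.90, 2.86, 1.19, 2.48 and 2.15 against 3.90, 5.84, 3.58, 3.16, 3.17 and 5.88 (15.3 kb, chr7:101808074-101823414). At all 3 genes the cKO GD14.5 IS list was the lowest of the 12 and the only one under the threshold. The same held for the region of the Mir183, Mir96 and Mir182 cluster, with 3.11, 2.48, 3.31, 1.31, 2.26 and 2.30 in cKO against 3.795, 4.797, 2.99, 3.43, 3.105 and 5.74 in control. Of the 61 regions past the threshold in 11 lists, 57 missed it in the cKO GD14.5 IS list.

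Zfp982, the Zfp gene with the highest −log10 q, had 5.72 to 7.65 in cKO and 5.54 to 9.76 in control, and passed in all 12 lists (24.9 kb, chr4:147416244-147441143). Fgf20, a secreted growth factor, passed in 11, with a −log10 q of 1.13 to 3.39 in cKO and 2.697 to 4.82 in control. Foxd4, a forkhead factor (34.9 kb), Kcnk13, a potassium channel (34.7 kb), and Olfr63, an odorant receptor (11.6 kb), also passed in 5 cKO and 6 control lists.

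Genes of prostaglandin and oxytocin signalling lay at such regions. Ptgs1, the constitutive cyclooxygenase, had a −log10 q of 3.50, 2.66, 3.23, 1.63, 2.06 and 2.48 in the cKO lists and of 3.75, 4.59, 2.40, 3.70, 3.57 and 5.46 in the controls (28.1 kb, chr2:36192513-36220630). Oxt, which encodes the oxytocin precursor, had 2.13, 2.201, 2.73, 1.06, 2.01 and 1.77 against 2.88, 4.08, 2.01, 3.01, 2.77 and 5.18 (16.2 kb, chr2:130571671-130587817). The cKO value was below that of its own control in 5 of 6 pairs for both genes, and above it at GD14.5 IIS, so that the cKO and control ranges overlapped. Of 38 genes of contraction and parturition only Ptger2, a prostaglandin receptor, and Cacnb2, a calcium channel subunit, joined them, each past the threshold in 1 control list. That is 10.5% of the list, against 11.3% of all autosomal genes.

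The share of a gene family with a strong region nearby ranged widely. Homeobox genes outside the Hox clusters had one within 2 kb in 59 of 140 cases (42.1%), bHLH and zinc finger developmental genes in 24 of 70 (34.3%), T-box, GATA and Sox genes in 12 of 37 (32.4%), potassium channel genes in 29 of 91 (31.9%), and Wnt, BMP, FGF and hedgehog genes in 24 of 100 (24.0%). Forkhead genes had 6 of 41 (14.6%), nuclear receptors 7 of 45 (15.6%), protocadherins 19 of 67 (28.4%) and Zfp genes 51 of 360 (14.2%). Over all autosomal genes the share was 11.3%, and differences from it were not tested. Below it lay olfactory and vomeronasal receptors, 14 of 1456 (0.962%), decidual genes, 1 of 24 (4.17%, Ptch1, the hedgehog receptor), and Hox genes, 3 of 39 (7.69%). The latter were Hoxd12 and Hoxd13, inside 1 region of 39.5 kb (chr2:74638629-74678082), and Hoxd11 within 2 kb of its end. It was past the threshold in the GD8.5 and Pdgfra-Cre control lists. Its −log10 q was 0.498 to 1.41 in cKO and 1.17 to 2.78 in control. Of imprinted genes 8 of 39 lay near a strong region, among them Kcnq1, Igf2, Sfmbt2 and Phlda2, and none of their 7 regions passed in a cKO list, as was so for 67.9% of all 2084. Neighbours within a cluster share a region, so members of a family are not independent.

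Genes of the Polycomb machinery were themselves among the neighbours, 6 of 27. Pcgf1, a subunit of a variant repressive complex, shared a region of 42.6 kb with the homeobox genes Lbx2 and Tlx2 (chr6:83058170-83100796, 4 cKO and 6 control lists). Phf19, an accessory subunit of the methyltransferase complex, had one past in 4 cKO and 6 control lists, and Suz12, a core subunit, in 3 and 4. Cbx8, which reads the mark, had one in 1 control list. Of cell type markers, none of 5 for fibroblasts, 6 for smooth muscle, 5 for endothelium and 6 for immune cells lay near a strong region. For epithelium 2 of 5 did (Epcam and Cdh1, 1 control list each), for trophoblast 1 of 5 (Gata3, 2 control lists), and of 13 broadly active genes 1 did (Gapdh). As 11.3% of all autosomal genes lay near a strong region, lists of 5 or 6 genes cannot tell a low share from that. Peak lists give no RNA level, so the identity of the cells was not checked further.

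Counts past the threshold were lower in cKO than in control in 5 of 6 pairs. In the Pgr-Cre lists from IIS, 458 regions passed in cKO and 657 in control on GD5.5, and 412 and 1377 on GD8.5. On GD14.5 the order was the other way, with 442 in cKO and 355 in control. In the lists from IS, 111 passed in cKO and 827 in control on GD14.5, 222 and 453 on GD18.5, and 291 and 1788 in the Pdgfra-Cre pair on GD14.5. In the same order of lists, the peaks that passed were 0.211%, 0.19%, 0.191%, 0.0448%, 0.0955% and 0.127% of all autosomal peaks of a list in cKO, and 0.304%, 0.676%, 0.151%, 0.412%, 0.213% and 0.954% in control.

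**Figure D2:**
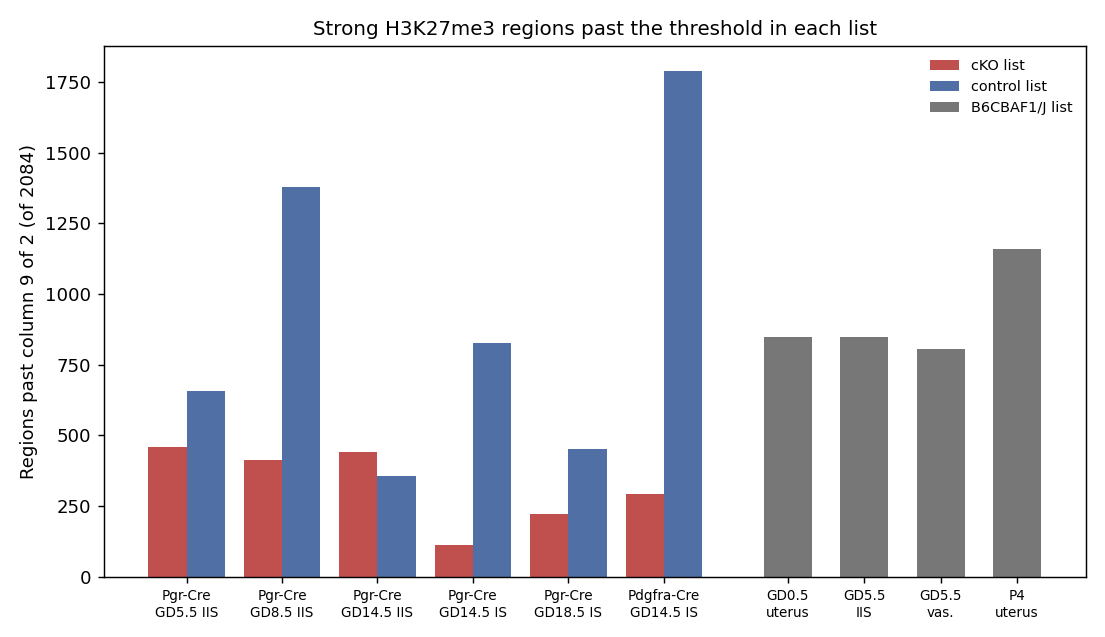
Bars give the number of the 2084 strong regions past a −log10 q of 2 in each peak list, in pairs of cKO (red) and control (blue), and for the 4 B6CBAF1/J lists (grey; vas., vasectomized mating; P4, progesterone). The cKO bar is the shorter in every pair but Pgr-Cre GD14.5 IIS, and control bars range from 355 to 1788.

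The control lists also differed among themselves. At GD14.5 IS, 1788 regions passed in the Pdgfra-Cre control and 827 in the Pgr-Cre control. That is a difference of 961 between lists with the same genotype, day and site, whose peak names give different rounds of peak calling. The cKO and control counts differed by more than that in 2 pairs, Pgr-Cre GD8.5 IIS (965) and Pdgfra-Cre GD14.5 IS (1497), and by 87 to 716 in the other 4. The 2 control lists with the most strong peaks also supplied most of the members seen once. Of 719 regions past the threshold in a single list, 488 came from the Pdgfra-Cre control and 168 from the GD8.5 control.

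By stage, the control lists of IIS went from 657 regions on GD5.5 to 1377 on GD8.5 and 355 on GD14.5, while the cKO lists stayed between 412 and 458. In IS, control went from 827 on GD14.5 to 453 on GD18.5 and cKO from 111 to 222. Day and list cannot be told apart. The cKO GD14.5 IS list was also unlike the rest in kind: its 111 regions were the 34 of high fold and 77 others, and only 23 of the latter were at least 5 kb wide, against 707 in its control list.

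Of the 2084 regions, 1414 passed in control lists only, 20 in cKO lists only and 650 in both. Without the 2 control lists with the most strong peaks, 395 of 1065 regions passed in control lists only and 66 in cKO lists only. When every list instead contributed its 1000 peaks of lowest p, the 3 numbers were 364, 396 and 1369. That setting makes the counts of a pair nearly equal by its construction, so it bears only on how far the excess in controls rests on the number of peaks past the threshold in each list. Without the Pdgfra-Cre pair, 34 passed in cKO lists only. Regions that missed the threshold in a list were rarely without a peak there: 2080 to 2084 of the 2084 regions overlapped a peak of some strength in each of the 12 lists, and these peaks covered a median of 95.9 to 97.8% of a region.

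In 7 regions the threshold split the lists by genotype without exception, past in all 6 controls and in no cKO list. Wnt7b, a secreted Wnt ligand, had the highest −log10 q of them, with 1.78, 1.61, 1.64, 0.651, 1.12 and 1.24 in the cKO lists and 3.21, 3.91, 2.22, 2.103, 2.36 and 5.96 in the controls (33.8 kb, chr15:85557524-85591352). Its fold over background was 1.55 to 1.82 in cKO and 1.755 to 2.498 in control, so the folds overlapped where the q values did not. Corin had a −log10 q of 1.70, 1.12, 1.75, 1.09, 1.81 and 1.56 against 2.01, 3.77, 2.15, 2.66, 2.31 and 3.73 (20.8 kb, chr5:72489647-72510467). Sp2 and Sp6 shared a region with at most 1.87 in cKO and 2.01 to 3.71 in control (44.4 kb, chr11:96982109-97026458). The others lay at Ncaph2, Sco2, Tymp, Odf3b, Klhdc7b and Syce3 (31.9 kb, chr15:89374342-89406281), at Creld1 and Prrt3 (13.0 kb, chr6:113494428-113507399), at Atp2c2, a calcium and manganese pump (18.3 kb, chr8:119690913-119709243), and at chr10:7482847-7501951 with no gene. In each of the 7 the highest cKO value lay just under the threshold, between 1.78 and 1.95.

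**Figure D3:**
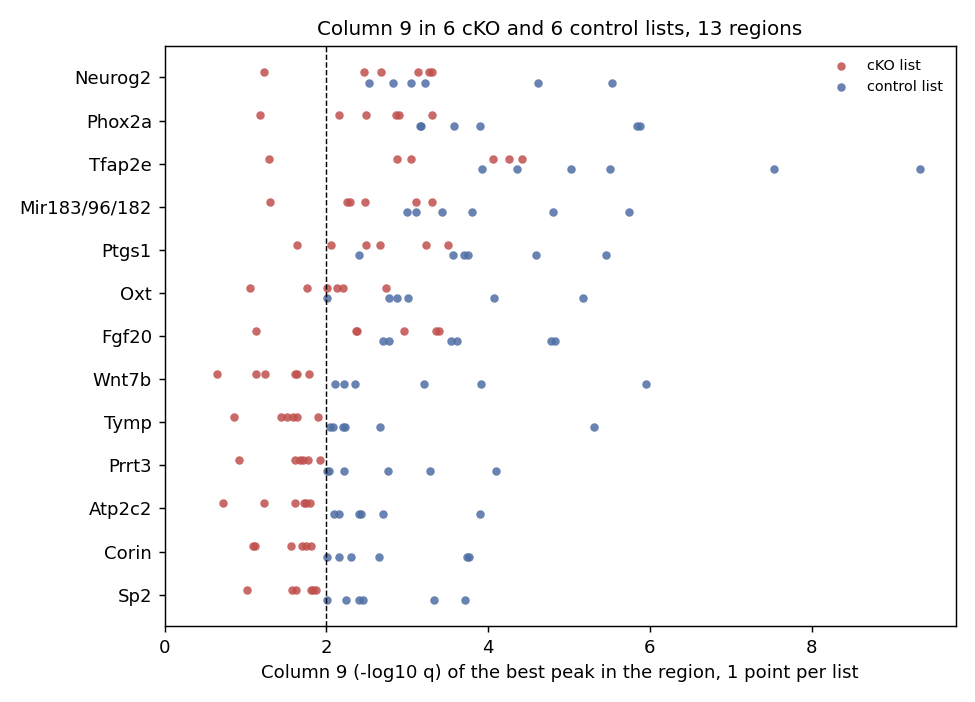
Each point is the −log10 q of the strongest peak in a region in 1 list, for 6 cKO (red) and 6 control (blue) lists, and the dashed line marks the threshold of 2. From Neurog2 to Fgf20 the cKO and control points overlap in range, with the cKO GD14.5 IS list farthest left at 1.06 to 1.63, while from Wnt7b to Sp2 all cKO points lie left of the line and all control points right of it.

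The 20 regions past the threshold in cKO lists only were narrow, with a median width of 2.04 kb, and 17 of them passed in a single list. One by Cd44, a hyaluronan receptor (1.99 kb, chr2:102902354-102904338), had a −log10 q of 3.52 at cKO GD18.5 IS and at most 1.18 in the other cKO lists and 0.945 in controls. One by Zfp263 was 13.0 kb wide and had at most 2.45 in cKO and 1.78 in control. The 3 past in 2 cKO lists had no gene within 2 kb (chr6:47753053-47753667, chr17:7910851-7911854 and chr17:29103684-29105783). Of regions past in at least 4 cKO and at most 3 control lists, a rule set after the values were seen, there were 10. They included chr16:86820515-86821466 (6 cKO and 3 control lists) and a region by Soga3 (5 and 3).

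The fold over background also tended to be lower in cKO lists. Over the strong regions, the median cKO minus control difference in fold was −0.035, −0.15, 0.032, −0.17, −0.048 and −0.25 in the 6 pairs, in the order used above. Over 20 kb bins of the autosomes it was 0.0014, −0.014, 0.022, −0.0054, 0.00096 and −0.027. Among 2078 regions with a peak in all 12 lists the fold was lower in cKO in 6 of 6 pairs for 427 (20.6%) and higher in 6 of 6 for 4 (0.193%), where 7.93% and 6.13% of 54060 bins did so. In 2104 regions built from the 1000 peaks of lowest p of each list the shares were 18.96% and 0.523%. Both sets of regions were chosen by p or q values of these same lists, and 1414 of the 2084 passed in control lists only. The bins were not chosen in this way, so the contrast with them is a description and not a test. Between the 2 control lists of GD14.5 IS, whose peak names give different rounds of peak calling, the median difference was 0.21. That is larger than the size of the cKO difference in 5 of the 6 pairs. Over the 34 regions of high fold the medians were −0.14, −0.080, 0.17, 0.42, 0.041 and −0.38, and over the others −0.035, −0.15, 0.031, −0.17, −0.048 and −0.25. The signs differed at Pgr-Cre GD14.5 IS, where 10 of 34 and 1864 of 2048 were lower in cKO, and at GD18.5 IS, and were the same in the other 4 pairs.

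**Figure D4:**
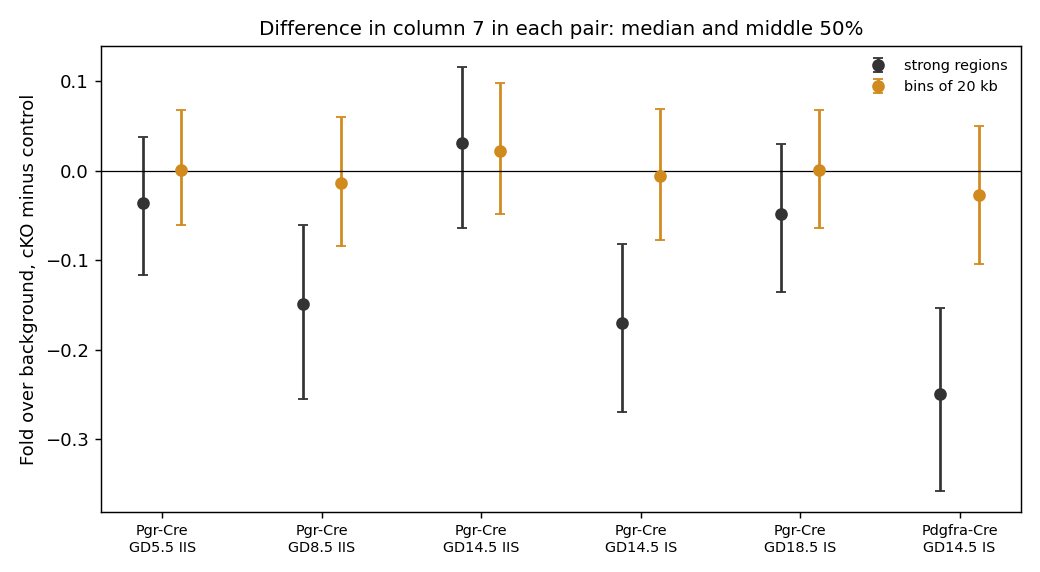
For each pair, the point is the median cKO minus control difference in fold over background and the bar its middle 50%, over strong regions (black) and over 20 kb bins (orange). The black median lies below 0 in 5 pairs, lowest at −0.25 in Pdgfra-Cre GD14.5 IS, while the orange medians lie between −0.027 and 0.022. The regions, unlike the bins, were chosen by the q values of these lists.

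The 4 B6CBAF1/J lists gave the same measure in animals that played no part in the selection. Regions past the threshold there numbered 849 at GD0.5, 847 at GD5.5 IIS, 807 after vasectomized mating and 1159 after progesterone, that is 38.7 to 55.6% of the 2084. In those lists 0.655%, 0.764%, 0.711% and 1.28% of all autosomal peaks passed. A peak of any strength overlapped 98.0 to 98.2% of the regions. All 4 lists passed at 624 regions (29.9%) and none at 815 (39.1%).

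Regions past the threshold in more lists of the Kdm6b set tended to pass more often in B6CBAF1/J. Of regions past in 1 list, 11.4 to 28.9% passed in a given B6CBAF1/J list, and of the 61 past in 11 lists, 96.7 to 98.4%. The 66 past in all 12 lists went lower again, 74.2 to 81.8%. They include the 34 of high fold, of which 76.5 to 85.3% passed, and 32 others, of which 68.8 to 78.1% did. The share was 71.5 to 81.5% for regions past in both cKO and control lists, 24.1 to 44.3% for control lists only and 5.0 to 15.0% for cKO lists only. Of the 7 regions that split by genotype, Wnt7b, Tymp and Sp2 passed in all 4 B6CBAF1/J lists, and Atp2c2 in none, with a −log10 q of 1.02 to 1.58.

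**Figure D5:**
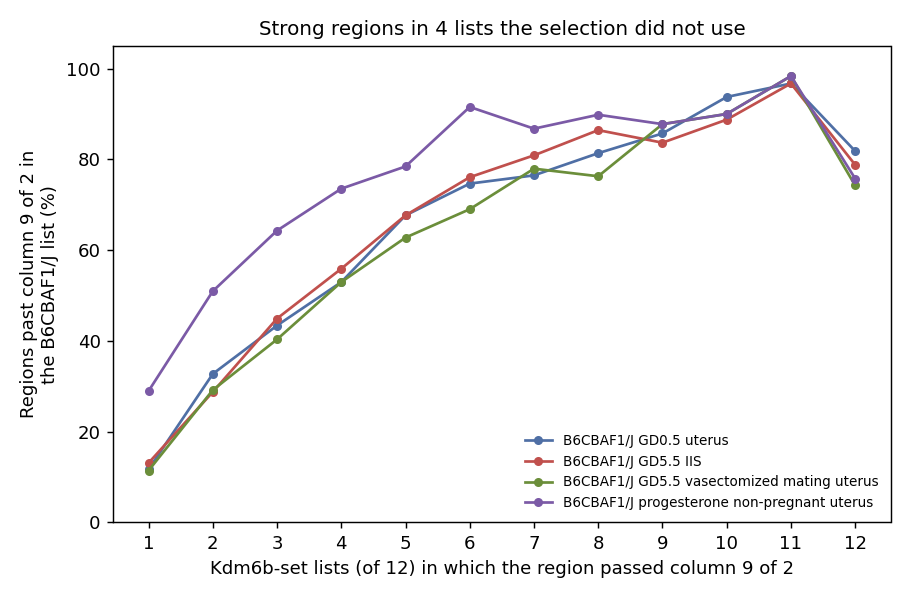
The horizontal axis is the number of the 12 Kdm6b-set lists in which a region passed, and the vertical axis the percent of those regions past the same threshold in each B6CBAF1/J list (1 line per list). All 4 lines go from 11.4 to 28.9% at 1 list to 96.7 to 98.4% at 11 lists and are lower at 12.

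Of 167 regions with a highest −log10 q of 2.0 to 2.1, 54 (32.3%) passed in a B6CBAF1/J list, and of 206 regions just outside, at 1.9 to 2.0, 50 (24.3%) did. The median widths were 17920 and 22320 bases, and neither difference was tested. Regions just outside hold no peak past the threshold, so they were merged under a looser cut-off than those inside. Width and overlap with other peaks depend on that cut-off, so these widths and shares do not compare like with like. Gm38469 and Vamp9 lay just inside, at 2.00, and Aard and Sema3d, a semaphorin, just outside, at 1.997 and 1.996.

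The extent of all peaks, strong or not, was compared between cKO and control with limma over the 6 pairs. Coverage is the share of a gene and its 2 kb flanks that peaks occupy. The peaks come from the lists that chose the regions, so the counts over nearby genes are a description, and whether IS and IIS fibroblasts of GD14.5 came from separate females is not stated. Of 1956 genes near strong regions that had a mean coverage of at least 5%, 100 rose (5.11%) and 53 fell (2.71%) at an adjusted p under 0.05, where 7.99% and 6.45% of all 10205 genes tested did so. The genes tested include those of chromosome X, while strong regions and the genes near them are autosomal by the rule. The 2 sets of shares thus differ in chromosomes, and shares over autosomal genes alone are not given. The median difference was 0 percentage points in both. With every list cut to an equal covered length, 39 rose and 45 fell. Without the Pgr-Cre pairs of GD5.5 IIS, GD8.5 IIS, GD14.5 IIS, GD14.5 IS and GD18.5 IS in turn, 54, 41, 67, 43 and 49 rose and 15, 9, 11, 14 and 7 fell, and without the Pdgfra-Cre pair 53 rose and 65 fell. Near regions past the threshold in control lists only, 87 of 1318 genes rose and 41 fell, and near those past it in both, 13 and 12 of 629.

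Mrln, which encodes the muscle micropeptide myoregulin, rose most, from 18.8% covered in control to 70.3% in cKO (difference 51.4 ± 7.81 points, SD, 6 pairs, limma adjusted p = 0.0028, higher in 6 of 6). Its strong region, 2.61 kb wide, had passed in 4 control lists and no cKO list. Col8a1, a short-chain collagen, rose by 33.0 ± 9.24 points (adjusted p = 0.0063) and Cdx1, a caudal homeobox gene, by 24.8 ± 13.3 (adjusted p = 0.032). Of the other genes with the largest rises, Il31ra, a cytokine receptor subunit, Plch1, Nmnat2 and Spata32 passed as well, but their adjusted p was 0.080, 0.055, 0.19 and 0.11 at equal covered length, while Arsg, a sulfatase, Ttll11 and Adamts8, a secreted protease, passed in both.

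Kcnv1, a modifier subunit of potassium channels, fell most, from 70.7% to 43.01% (difference −27.7 ± 9.32 points, limma adjusted p = 0.010, lower in 6 of 6). Its limma adjusted p at equal covered length was 0.069. B020031M17Rik (−24.9 points) and Dpy19l2 (−14.6) also passed and lost the call at equal covered length. Stk32b (−20.9), Tmem132b (−16.6), Atf7ip2 (−16.0), Hecw1, a ubiquitin ligase (−15.8), Trpa1, an irritant-sensing channel (−15.4), Adcy8, an adenylyl cyclase (−14.6), and Otud7a (−14.5) fell in both. Each was lower in 6 of 6 pairs.

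Counts within gene lists stand beside 7.99% rising and 6.45% falling over all genes tested, and 5.11% and 2.71% near strong regions. Differences from these shares were not tested. Results at equal covered length are given only for the genes with the largest changes above. Of 8 imprinted genes near strong regions 4 rose and none fell. Those that rose were Slc22a3, an organic cation transporter, by 17.2 points, Ppp1r9a by 15.6, Kcnq1 by 8.90 and Sfmbt2 by 6.59. Of 19 protocadherins 5 fell (Pcdha1 to Pcdha5, neighbours with overlapping spans, with differences of −5.20 to −7.59 points) and Pcdhac2 rose by 7.42. Of 58 homeobox genes 3 rose (Cdx1, Meox2 and Pax8), of 29 potassium channel genes 3 rose and 1 fell, and of 24 Wnt, BMP, FGF and hedgehog genes Rspo2 rose by 13.4 points and Fgf14 fell by 7.38. Cdh1, an epithelial cadherin, rose by 10.4 points. By limma 0 of 24 bHLH and zinc finger, 0 of 35 Zfp, 0 of 7 nuclear receptor and 0 of 4 contraction genes passed at an adjusted p under 0.05, with 2, 7, 1 and 1 of them at an unadjusted p under 0.05. Of 12 T-box, GATA and Sox and 6 forkhead genes 0 passed either way. Neurog2 was inside peaks over its whole span in every list, with a difference of 0.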

How the data were processed

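The submitters' processing notes name mm10, STAR 2.7.5c, samtools 1.10, Picard, bedtools 2.29.1 and, for the broad peaks, macs2 2.2.7.1. Each of the deposited lists pools 3 samples and gives per peak the authors' fold over background (a ratio), −log10 p and −log10 q, here used as deposited. A region takes its fold and q in a list from its strongest peak there. Genes came from RefSeq (GRCm38.p6), with positions counted from 1. Coverage of genes was tested with limma 3.58.1 (R 4.3.3) on the 6 paired differences. Benjamini-Hochberg adjustment was over all genes of the autosomes and chromosome X with at least 5% mean coverage. The procedure was tested on simulated data, but only with a shift larger than every change named here except that of Mrln. How well it finds smaller changes was not tested. The limma calls use an adjusted p under 0.05. Named regions were the 10 past the threshold in the most lists, the 10 of highest −log10 q, the 5 widest, and 5 each of control only and cKO only. Named genes were the 10 largest limma changes each way and up to 4 per gene list with the highest −log10 q. Others were named after their values were seen. The regions, the 22 gene lists and the tests were chosen with earlier results of these data known. Alternatives were other thresholds, the 1000 strongest peaks per list, a merging gap, other flanks, an overlap of 50%, other limma settings and leaving out each pair. No source used here gives a read depth, so the precision of a single list is unknown. Inputs, 1 of them labelled with the H3K27me3 antibody, and 12 samples of another set were not used here. Scripts ran under python 3.11.15 with pandas 2.3.3, numpy 2.4.6 and scipy 1.17.1, and figures with matplotlib 3.10.9.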

Additional observations from a re-analysis of the deposited data

Results flagged for a closer look

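Pgr-Cre GD14.5 IIS went against the other 5 pairs. Its log2 ratio of regions past the threshold, cKO over control, was 0.32 (442 against 355), while the ratios of the other 5 pairs were −0.52, −1.74, −2.90, −1.03 and −2.62. The difference between pairs was not tested, as each has 1 list per side.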

How the results depend on the processing

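Pairs are given as Pgr-Cre GD5.5 IIS, GD8.5 IIS, GD14.5 IIS, GD14.5 IS, GD18.5 IS and Pdgfra-Cre GD14.5 IS. At a −log10 q of at least 3 there were 896 regions over 15.4 Mb, 697 in control lists only, 6 in cKO lists only and 193 in both. Within pairs, 9, 7, 36, 6, 19 and 2 passed in cKO only and 96, 412, 27, 215, 78 and 701 in control only. At 1 or more there were 5600 regions over 113.6 Mb, with 2549, 171 and 2880. Within pairs the counts were 316, 134, 731, 28, 151 and 43 in cKO only and 708, 1973, 318, 2679, 1055 and 3011 in control only. With the 1000 peaks of lowest p of each list, 364 regions were in control lists only, 396 in cKO lists only and 1369 in both. Within pairs 245, 264, 287, 292, 301 and 273 were then in cKO only and 248, 262, 289, 302, 301 and 276 in control only, and the median fold difference was −0.131 at GD8.5 IIS and −0.22 in the Pdgfra-Cre pair. Without the 2 control lists with the most strong peaks, an alternative chosen after seeing the data like that of the fold in the top 1000, there were 1065 regions over 18.7 Mb, 395 in control lists only and 66 in cKO lists only. Leaving out each pair gave 1598 to 2079 regions, 29.89 to 39.8 Mb, 944 to 1470 in control lists only, 18 to 34 in cKO lists only and 591 to 642 in both, and 41 to 67 genes that rose and 7 to 65 that fell by limma. A gene lay within 5 kb of 84.3% of regions and overlapped 69.4%. A peak covering at least 50% of the region was found for 95.9%, 95.8%, 95.8% and 95.3% in the B6CBAF1/J lists. At equal covered length 39 genes rose. Of the alternatives computed, 78 left the value within its tolerance and 71 did not. The order of cKO only and control only turned with the top 1000 peaks, over all lists and at GD8.5 IIS and GD14.5 IIS, where equal peak numbers make the counts nearly equal by construction. The order of genes that rose and fell turned at equal covered length (39 and 45) and without the Pdgfra-Cre pair (53 and 65). By replicate number, no paired analysis was possible because a list holds 3 pooled samples. The limma pairs join cKO and control lists of 1 day, site and Cre line, and the unpaired fit gave 91 genes that rose and 64 that fell.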
